A study of Mus musculus with 3 samples.

Results

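The crypt stem cell genes described here are 10 genes found by symbol among the 32285 features counted in each library: Lgr5, Ascl2, Axin2, Smoc2, Rgmb, Sox9, Ephb2, Lrig1, Slc12a2 and Cdca7. All 10 were found, and each had UMIs (unique molecular identifiers, which count captured transcripts) in every library. They were followed in sections of mouse distal colon by Visium, which captures the RNA of a section on a slide printed with barcoded spots, each wide enough to hold several cells. The groups were Hgfac KO colon at day 2 after wounding, Hgfac WT colon at day 2 after wounding and Hgfac WT intact colon, with 1 library per group. Hgfac encodes the activator of hepatocyte growth factor. The labels give no strain, age or means of wounding, and KO intact colon was not analysed here, so no KO value has an unwounded counterpart. Each library pooled 3 biological replicates, and its spots formed 3 pieces of tissue that no label ties to an animal.

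Colonic epithelium is renewed from stem cells at the base of the crypts, whose daughters divide, move up the crypt wall and differentiate before they reach the surface. Wnt ligands and R-spondins from the cells around the crypt base hold stem cells in place, and most genes of this set are Wnt targets or are used as markers of the lower crypt. Lgr5 is a receptor for R-spondins, Ascl2 a basic helix-loop-helix transcription factor of stem cells, and Axin2 a scaffold protein of the complex that degrades beta-catenin and a feedback target of Wnt. Smoc2 is a secreted matrix-associated protein and Rgmb a co-receptor for bone morphogenetic proteins. Sox9 is a transcription factor of crypt progenitors, Ephb2 a receptor tyrosine kinase that positions cells along the crypt, and Lrig1 an inhibitor of ErbB receptor signalling. Slc12a2 is the sodium-potassium-chloride cotransporter of crypt cells, and Cdca7 is a gene activated by Myc in dividing cells.

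The proximal promoters of Ascl2 and Axin2, the transcription factor and the feedback gene of the Wnt pathway, are shown because these genes had crypt-rich levels far above their surface-rich levels in every library. They run from 250 bases before to 50 after the annotated start, are credited to RefSeq (GRCm38.p6), and have each CG dinucleotide in capitals.

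Ascl2, chr7:142969215-142969514, minus strand: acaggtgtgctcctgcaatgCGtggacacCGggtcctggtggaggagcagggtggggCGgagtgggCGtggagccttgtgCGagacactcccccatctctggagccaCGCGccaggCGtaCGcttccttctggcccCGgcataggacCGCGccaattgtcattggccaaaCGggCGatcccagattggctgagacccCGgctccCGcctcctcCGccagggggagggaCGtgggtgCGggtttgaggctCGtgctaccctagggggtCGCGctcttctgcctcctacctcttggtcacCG

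Axin2, chr11:108920099-108920398, plus strand: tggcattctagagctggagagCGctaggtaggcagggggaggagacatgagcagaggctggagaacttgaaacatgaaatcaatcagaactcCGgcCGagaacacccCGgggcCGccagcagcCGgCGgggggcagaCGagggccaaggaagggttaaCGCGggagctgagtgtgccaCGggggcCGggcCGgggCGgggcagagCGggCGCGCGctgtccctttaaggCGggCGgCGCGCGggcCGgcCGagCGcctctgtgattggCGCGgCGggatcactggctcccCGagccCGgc

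The Ascl2 window held 23 CG dinucleotides with 67% G and C, and the Axin2 window 31 with 70%, against medians of 7 and 52.7% over 32851 mouse promoters of the same length. Of the 10 genes, 6 matched a promoter in the table, with 8 promoters in all. Lgr5, Smoc2, Sox9 and Slc12a2 had none, and several of the 8 belong to Rgmb, some of them overlapping one another. The motif CTTTGA, the core of the site bound by TCF factors, was searched on either strand and was in 0 of these 8 windows and in 16.0% of all promoters. Overlap with other motifs was not considered. With so few windows, a letter match or its absence is a description only.

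Tissue covered 572 spots in KO wound, 640 in WT wound and 502 in WT intact, with totals of 8930574, 11306771 and 8180099 UMIs in the same order. Levels are in CPM, UMIs of a gene per 1000000 UMIs of the library or layer, and each ratio has an exact conditional binomial 95% interval that covers counting error only. With 1 library per group there was no test between groups, so differences are described by their size, by their counting interval and by whether the values of the 3 pieces overlapped. A gene was compared where both sides together held at least 50 UMIs, and was called higher where the ratio reached 1.5 and lower where it was 0.667 or less. Hgfac itself had 438 UMIs and 49.0 CPM in KO wound (pieces 38.4 to 59.5), against 1072 UMIs and 94.8 CPM in WT wound (87.6 to 105), a ratio of 0.517. Hgfac transcripts were therefore lower but present in the KO library, and because the sources used here do not say which part of the gene was deleted, this checks the label only in part. All libraries lay on 1 slide in separate capture areas, so capture area and group cannot be told apart.

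Spots were sorted into layers with marker lists that hold none of the 10 genes. A spot was epithelium-led where an epithelium list outweighed a smooth muscle and a matrix list, and otherwise muscle-led or matrix-led. The epithelium-led spots of all libraries were put in 3 equal parts by the balance of surface genes against crypt genes. This gave 123 crypt-rich, 145 middle and 133 surface-rich spots in KO wound, 119, 135 and 128 in WT wound, and 98, 60 and 79 in WT intact. Muscle-led spots numbered 118, 211 and 264 in KO wound, WT wound and WT intact. Spots are small regions, and a lower level in them can mean fewer cells of a type or less RNA per cell, which cannot be told apart.

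**Figure D1:**
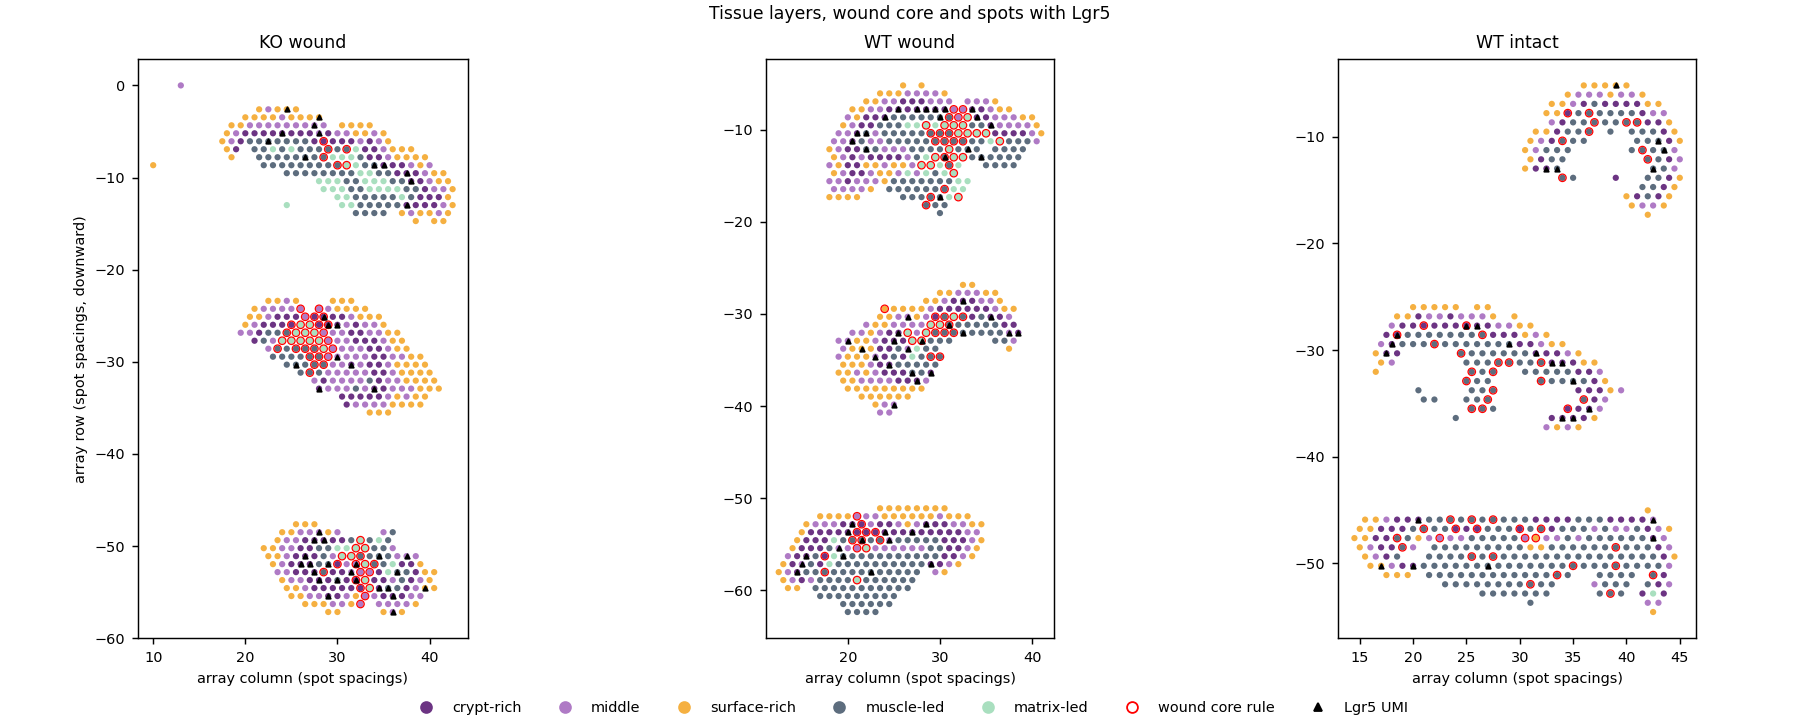
Spots of each library at their array positions, coloured by layer. Red rings mark the 10% of spots highest in wound bed genes (in WT intact this is only the same rule applied to unwounded tissue) and black triangles mark spots with an Lgr5 UMI. Of the Lgr5 UMIs, 57.1% in KO wound, 60.3% in WT wound and 67.7% in WT intact lay in crypt-rich spots.

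Within the epithelium the set fell along the crypt axis. All 8 genes with enough UMIs were higher in crypt-rich than in surface-rich spots in each of the 3 libraries, and for all 8 the 3 crypt-rich pieces lay wholly above the 3 surface-rich pieces. Of all genes compared, 44.2% were higher in crypt-rich spots in KO wound, 48.1% in WT wound and 41.4% in WT intact, and the pieces lay wholly apart for 58.2%, 57.6% and 54.7%. At 2-fold all 8 were still called in each library, where 26.8%, 29.2% and 24.8% of all genes were. The median log2 ratio of the 8 genes was 2.41, 2.65 and 2.47, against 0.46, 0.55 and 0.39 over all genes. The spots were split by genes outside the set, but those genes were taken as crypt or surface markers, so this gradient places the set and is a check of its label.

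Smoc2, the secreted matrix-associated protein, had the steepest gradient of the 8 in KO wound and WT intact. In KO wound it had 112 CPM in crypt-rich spots, 32.9 in middle spots and 6.44 in surface-rich spots. In WT wound the same layers had 79.0, 12.7 and 7.63 CPM, and in WT intact 62.7, 3.58 and 2.77 CPM. The crypt-rich over surface-rich ratio of Smoc2 was 17.4 (11.1 to 28.5) in KO wound, 10.3 (6.92 to 16.0) in WT wound and 22.6 (10.6 to 57.4) in WT intact. These intervals overlap one another.

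Axin2 and Cdca7, the Wnt feedback gene and the Myc-responsive gene, came next. Axin2 had 38.0 CPM in crypt-rich and 2.93 in surface-rich spots in KO wound, 32.4 and 2.89 in WT wound, and 32.1 and 4.36 in WT intact. Its ratio was 13.0, 11.2 and 7.38 in these libraries, and 31.2 in KO wound without piece 1. Cdca7 had 92.1 CPM in crypt-rich and 9.07 in surface-rich spots in KO wound, 75.8 and 9.47 in WT wound, and 87.8 and 10.7 in WT intact. The Cdca7 ratio was 10.2, 8.01 and 8.21, so the gradient of Cdca7 was similar in size in the 3 libraries.

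The receptor genes and the transporter had shallower gradients. Lrig1 was 6.38-fold higher in crypt-rich than in surface-rich spots of KO wound, 7.79-fold in WT wound and 4.60-fold in WT intact. The ratio of Ephb2 was 4.43, 5.07 (7.67 without piece 3 of WT wound) and 3.95, and that of Rgmb 3.91, 2.71 and 3.81. Slc12a2 was 3.82-fold higher in KO wound (3.24 to 4.52), 4.98-fold in WT wound (4.29 to 5.79) and 6.64-fold in WT intact (5.28 to 8.43). The intervals of Slc12a2 in KO wound and WT intact did not overlap. The surface-rich level of Slc12a2 was 67.3 CPM in KO wound, 65.8 in WT wound and 35.7 in WT intact.

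Sox9 had the shallowest gradient of the 8 in all 3 libraries. Its ratio was 2.36 (1.82 to 3.05) in KO wound, 2.66 (2.002 to 3.54) in WT wound and 2.37 (1.66 to 3.39) in WT intact. In KO wound the Sox9 level was 83.4 CPM in crypt-rich, 42.1 in middle and 35.4 in surface-rich spots. Sox9 transcripts were thus counted along the whole epithelium in these sections, at 23.4 CPM in surface-rich spots of WT wound and 20.6 in those of WT intact.

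Lgr5 and Ascl2, the most restricted stem cell markers in the intestine, were too rare to be compared here under the rule of 50 UMIs. Lgr5 had 28 UMIs in crypt-rich and 3 in surface-rich spots of KO wound, 41 and 1 in WT wound, and 21 and 2 in WT intact. The ratio was 21.3 (6.58 to 109) in KO wound, 81.5 (13.8 to 3296) in WT wound and 14.2 (3.47 to 125) in WT intact. Ascl2 had 2 surface-rich UMIs in each library, and its ratio was 41.1 (10.6 to 352) in KO wound, 32.8 (8.39 to 282) in WT wound and 26.4 (6.83 to 225) in WT intact. The intervals are wide and lie above 1 in all cases.

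A share of spots gave the same order. An Lgr5 UMI was found in 17.9% of crypt-rich spots of KO wound, 22.7% of WT wound and 15.3% of WT intact, against 2.26%, 0.78% and 2.53% of surface-rich spots. Ascl2 was found in 23.6%, 21.8% and 29.6% of crypt-rich spots, against 1.504%, 1.56% and 2.53% of surface-rich spots. Surface-rich spots were deeper, with medians of 25429, 28164 and 30736 UMIs against 11529, 14365 and 17965 in crypt-rich spots. Spots with at least 5000 UMIs were then thinned to 5000 and the others left out. Lgr5 remained in 7.02%, 9.48% and 3.33% of crypt-rich spots and in 0.75%, 0.79% and 0% of surface-rich spots.

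**Figure D2:**
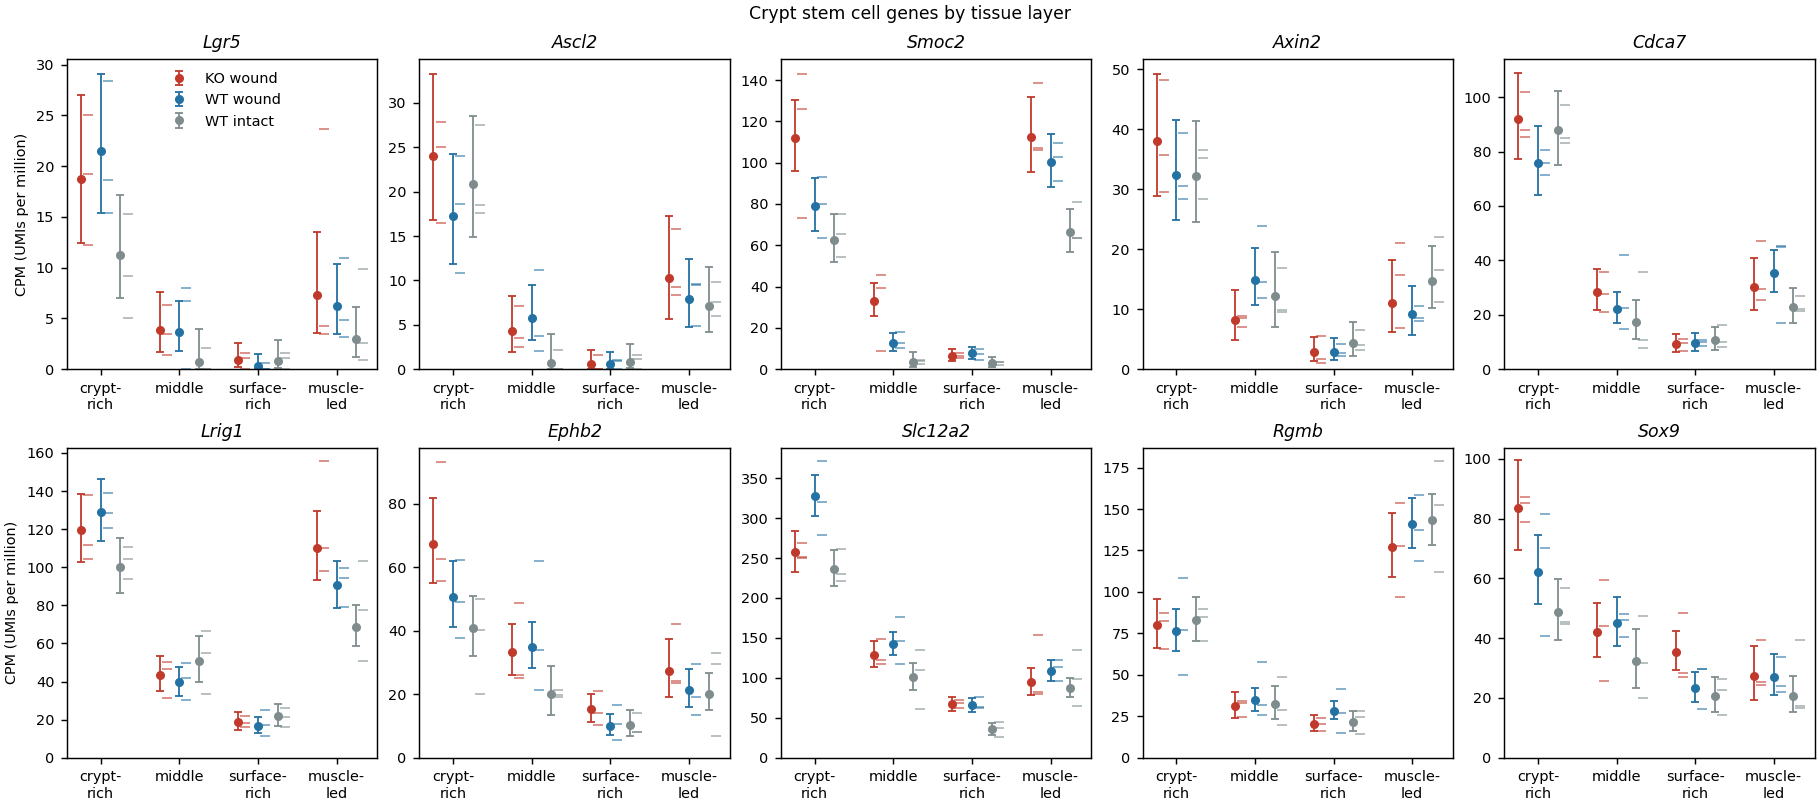
Level of each gene in CPM (vertical axis) in crypt-rich, middle, surface-rich and muscle-led spots of KO wound (red), WT wound (blue) and WT intact (grey). Points are library values with 95% Poisson intervals and dashes are the 3 tissue pieces. All 10 genes lie lower in surface-rich than in crypt-rich spots, and Smoc2, Rgmb and Lrig1 lie high again in muscle-led spots.

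Smoc2, Rgmb and Lrig1 were also counted in the muscle wall. Smoc2 was 3.04-fold higher in muscle-led than in epithelium-led spots in KO wound, 3.96-fold in WT wound and 2.99-fold in WT intact. Rgmb was 3.50-fold, 3.43-fold and 3.25-fold higher, and Lrig1 2.31-fold and 1.83-fold higher in KO wound and WT wound and 1.27-fold in WT intact, which missed the threshold. In all, 4 of 9 genes compared were higher in muscle-led spots of KO wound, 3 of 10 in WT wound and 2 of 9 in WT intact, where 26.6%, 24.5% and 23.7% of all genes were higher. In WT wound and WT intact these shares were near those of all genes. The pieces lay wholly apart for 4 of 9, 6 of 10 and 3 of 9 genes, against 46.2%, 47.2% and 45.3% of all genes. The fourth gene in KO wound was Ascl2, with 14 muscle-led UMIs and a ratio of 1.53 (0.777 to 2.83), whose interval includes 1. Its ratio was 0.834 where only spots with at least 3 times more smooth muscle than epithelium UMIs were kept.

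The levels show how much of each gene lay outside the epithelium. Rgmb had 127.2 CPM in muscle-led spots of KO wound (pieces 96.7 to 154), 141 in WT wound (119 to 159) and 143 in WT intact (112 to 179). These exceeded its crypt-rich levels of 80.1, 76.4 and 83.0 CPM by 1.59-fold, 1.85-fold and 1.72-fold, and the pieces did not overlap, where 41.2%, 42.6% and 42.4% of all genes had pieces wholly apart. Smoc2 had 112 CPM in muscle-led spots of KO wound, 100.5 in WT wound and 66.5 in WT intact, at 1.003, 1.27 and 1.06 times its crypt-rich level. Muscle-led spots held 37.3%, 47.9% and 57.1% of the Rgmb UMIs and 33.3%, 49.2% and 55.1% of the Smoc2 UMIs in KO wound, WT wound and WT intact, but 15.2%, 21.2% and 29.0% of all UMIs.

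Epithelial RNA was present in muscle-led spots at 0.228, 0.421 and 0.529 times its epithelium-led level, from the sum of the epithelium list, and at 0.178, 0.326 and 0.352 times in the spots with at least 3 times more smooth muscle UMIs. In those spots Smoc2 was 3.01-fold, 4.60-fold and 3.62-fold, Rgmb 3.50-fold, 3.80-fold and 4.41-fold and Lrig1 2.30-fold, 2.01-fold and 1.24-fold above epithelium-led spots. Over all muscle-led spots, enteric glia genes stood at 15.8, 16.3 and 11.0 times their epithelium-led level, and enteric neuron genes at 13.6, 30.5 and 18.6 times. Which cells of the wall held the Smoc2, Rgmb and Lrig1 transcripts was not tested. A whole-library value of these 3 genes is therefore a value of wall and crypt together.

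Apart from Rgmb and Smoc2, all genes compared lay below their crypt-rich level in muscle-led spots of each library. Lrig1 was among them, at 110 CPM in muscle-led against 119 in crypt-rich spots of KO wound. Against crypt-rich spots 6 of 9 genes compared were lower in muscle-led spots of KO wound, 7 of 10 in WT wound and 6 of 9 in WT intact, where 29.1%, 27.1% and 27.1% of all genes were lower. Rgmb was the 1 gene called higher in each library, where 18.0%, 16.6% and 20.9% of all genes were. Slc12a2 was at 0.369, 0.331 and 0.370 of its crypt-rich level in KO wound, WT wound and WT intact, and Axin2 at 0.290, 0.283 and 0.459. Against the whole epithelium Sox9 was at 0.570, 0.691 and 0.635, which was called lower in KO wound and WT intact. Cdca7 was at 0.612 (0.446 to 0.829) in WT intact and was called lower there. The counts called lower were 1 of 9, 0 of 10 and 2 of 9, where 23.5%, 21.0% and 22.1% of all genes were. The span of Lrig1 overlaps that of Slc25a26, and the 3 libraries together held 1653 UMIs of Lrig1 and 244 of Slc25a26.

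**Figure D3:**
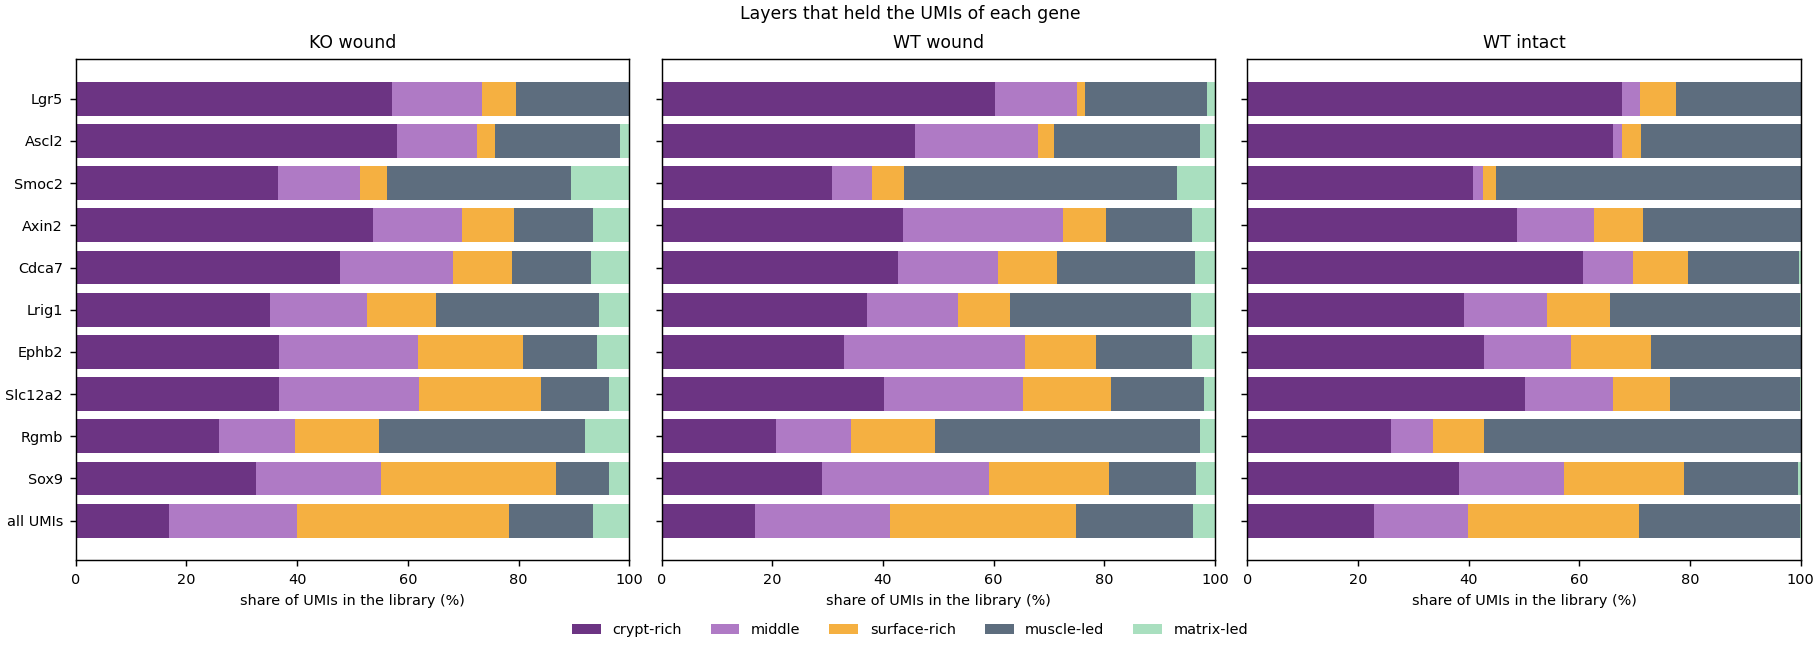
Share of each gene's UMIs that lay in each layer (horizontal axis, percent), by library, with all UMIs in the bottom bar. Crypt-rich spots held 16.8%, 16.9% and 22.8% of all UMIs in KO wound, WT wound and WT intact and 58.1%, 45.8% and 66.1% of the Ascl2 UMIs, and muscle-led spots held the widest share of Rgmb in all 3 libraries.

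Day 2 wounds of WT colon were compared with WT intact colon to see how the set stood after wounding. Over whole libraries 1 of 10 genes, Lgr5, was called higher and 0 were called lower, where 9.18% of all genes were higher and 7.03% lower. At 2-fold 0 of 10 were called higher, where 3.29% of all genes were. The median log2 ratio of the 10 genes was 0.13, against 0.09 over all genes. The pieces of WT wound and WT intact lay wholly apart for Lgr5 and Slc12a2, that is for 2 of 10 genes, against 22.5% of all genes. A share of this size is near that of all genes.

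Lgr5, the R-spondin receptor, had 7.33, 5.43 and 5.06 CPM in the pieces of WT wound, against 3.27, 4.996 and 2.84 CPM in those of WT intact. The lowest wound piece lay just above the highest intact piece. The ratio was 1.59 (1.02 to 2.51) from 68 and 31 UMIs. It was 1.39 without piece 1 of WT wound and 1.40 without piece 3 of WT intact, both short of the threshold, and 1.48 within epithelium-led spots, where 10.1% of all genes were called higher. It was 2.49 with equal weight for every spot. The ratio was 2.66 with spots thinned to 5000 UMIs, where 29 shallower spots of WT wound and 59 of WT intact were left out. This value came from 22 thinned Lgr5 UMIs in WT wound and 6 in WT intact, too few to be compared under the minimum count. Within crypt-rich spots Lgr5 had 21.4 CPM in WT wound (pieces 15.4 to 28.4) and 11.2 CPM in WT intact (5.03 to 15.2), a ratio of 1.91 (1.10 to 3.40).

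Slc12a2, the cotransporter, had 158, 123 and 131 CPM in the pieces of WT wound, against 107, 108 and 108 CPM in those of WT intact. All wound pieces lay above all intact pieces. The ratio was 1.28 (1.18 to 1.39), short of the threshold, with 1559 and 882 UMIs. The ratio was 1.38 (1.22 to 1.57) in crypt-rich spots and 1.84 (1.44 to 2.37) in surface-rich spots, where Slc12a2 was the only gene of 6 compared that was called higher and where 7.52% of all genes were. In both layers the pieces did not overlap, where 22.0% and 16.4% of all genes had pieces wholly apart. Among these 6 genes the surface-rich level of Slc12a2 was the furthest above intact tissue.

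The other 8 genes lay between 0.835 and 1.25 times intact over whole libraries. Sox9 at 1.25 (1.06 to 1.47, and 1.55 with equal weight for every spot), Smoc2 at 1.24 (1.07 to 1.43) and Rgmb at 0.857 (0.768 to 0.958) had counting intervals without 1, with pieces that overlapped. Muscle-led spots, where Rgmb was highest, held 21.2% of all UMIs in WT wound and 29.0% in WT intact. What this contributed to the Rgmb ratio was not tested. Axin2, the direct readout of Wnt feedback, had 12.6 CPM in WT wound and 15.04 CPM in WT intact, a ratio of 0.835 (0.651 to 1.07). Ascl2 stood at 0.883 (0.617 to 1.27) and Cdca7 at 0.908 (0.772 to 1.07). The intervals of Axin2, Ascl2 and Cdca7 include 1, and differences within them were not detectable at this depth.

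Within crypt-rich spots the 10 genes had a median log2 ratio of 0.33, against 0.15 over all genes. Lgr5 was the 1 gene called, where 16.0% of all genes were higher and 6.37% lower. The pieces lay apart for 4 of 10 genes, against 22.0% of all genes: Lgr5 and Slc12a2, given above, Lrig1 at 1.29 (1.06 to 1.57), and Cdca7, lower in wounds at 0.863 (0.686 to 1.09). Beside this, the cell cycle genes of the crypt list stood at 0.572 of intact and the other crypt genes at 1.07 in crypt-rich spots, so the crypt-rich spots of the wound library held a lower level of cycle transcripts. Lymphoid genes stood at 8.66 times intact, with 17.6, 39.0 and 516 CPM in the pieces of WT wound, against 32.7, 17.4 and 16.5 CPM in those of WT intact, so that 1 wound piece carried the ratio. What these differences in spot content contribute to the values of the set was not tested.

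The muscle-led layer moved for 3 genes. Smoc2 had 100.5 CPM there in WT wound and 66.5 CPM in WT intact, a ratio of 1.51 (1.23 to 1.86) with pieces apart. Cdca7 stood at 1.56 (1.10 to 2.23), and Axin2 was lower in wounds at 0.622 (0.348 to 1.09), with pieces apart but an interval that includes 1. Thus 2 of 8 genes compared were higher and 1 lower, where 10.9% and 8.04% of all genes were, and the pieces lay apart for 2 of 8 genes, against 17.6%. In the middle layer Ephb2 was called higher in WT wound at 1.74 (1.13 to 2.76), with overlapping pieces, 1 of 7 genes compared where 13.7% of all genes were higher.

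The second comparison set Hgfac KO wounds against WT wounds of the same day. Over whole libraries 0 of 10 genes were called higher or lower, where 3.34% and 2.73% of all genes were. The pieces lay wholly apart for 0 of 10 genes, against 8.03% of all genes. The median log2 ratio was 0.04, against 0.05 over all genes.

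Smoc2, Sox9 and Ephb2 stood a little above and Slc12a2 and Rgmb a little below WT wound. The ratio was 1.19 (1.04 to 1.35) for Smoc2, 1.18 (1.03 to 1.36) for Sox9 and 1.18 (1.001 to 1.40) for Ephb2. It was 0.853 (0.788 to 0.923) for Slc12a2 and 0.833 (0.740 to 0.938) for Rgmb. Slc12a2 had 105, 119 and 134 CPM in the pieces of KO wound, against 158, 123 and 131 CPM in those of WT wound, and the highest KO piece lay above 2 of the WT pieces. Lgr5 had 3.92, 3.41 and 9.62 CPM in the pieces of KO wound, against 7.33, 5.43 and 5.06 CPM in those of WT wound. Both the highest and the lowest Lgr5 values were thus in KO wound, and its ratio of 0.912 (0.619 to 1.34) was 0.614 without piece 3 of KO wound.

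Within crypt-rich spots 0 of 10 genes were called, where 4.65% of all genes were higher and 4.03% lower, and the median log2 ratio was 0.26 against 0.03 over all genes. Smoc2 had 73.1, 126 and 143 CPM in the crypt-rich pieces of KO wound, against 79.9, 93.3 and 63.4 CPM in those of WT wound. Its ratio was 1.42 (1.13 to 1.78), and 1 KO piece lay among the WT pieces. Sox9 stood at 1.34 (1.03 to 1.74), Ephb2 at 1.33 (0.996 to 1.77) and Ascl2 at 1.39 (0.844 to 2.30). The pieces lay apart for 2 of 10 genes, against 9.49% of all genes: Cdca7, higher in KO wound at 1.21 (0.955 to 1.54), and Slc12a2, lower in KO wound at 0.785 (0.690 to 0.893). Slc12a2 had 251, 250 and 268 CPM in crypt-rich pieces of KO wound, against 371, 321 and 279 CPM in those of WT wound.

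Marker lists moved in the same crypt-rich spots. Cell cycle genes stood at 1.22 times WT wound in KO wound, smooth muscle genes at 0.759 and lymphoid genes at 0.220, the last carried by 1 WT wound piece with 516 CPM. Their part in the values of the set was not tested. Where crypt-rich spots were chosen without the cell cycle genes, an alternative chosen after seeing the data, 2 genes were called higher in KO wound, Smoc2 at 1.56 and Ascl2 at 1.54, and 0 lower, of 10 compared, where 4.45% of all genes were higher and 4.29% lower.

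In the middle layer Smoc2 was 2.58-fold higher in KO wound (1.69 to 4.003), from 68 and 35 UMIs. Its pieces had 8.73, 45.8 and 39.1 CPM in KO wound, against 12.5, 10.1 and 18.0 CPM in WT wound, so 2 KO pieces lay above all WT pieces and 1 below them. Axin2 was lower there in KO wound at 0.551 (0.294 to 0.992), with pieces apart. These were 1 gene higher and 1 lower of 8 compared, where 4.48% and 2.89% of all genes were, and the pieces lay apart for 1 of 8, against 8.98%. In surface-rich spots Sox9 was called higher at 1.51 (1.14 to 2.01) and Ephb2 at 1.52 (0.982 to 2.38), 2 of 7 compared where 4.51% of all genes were higher, where 1.85% were lower, with overlapping pieces for both. In muscle-led spots 0 of 7 genes were called, where 7.55% of all genes were higher and 6.86% lower.

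**Figure D4:**
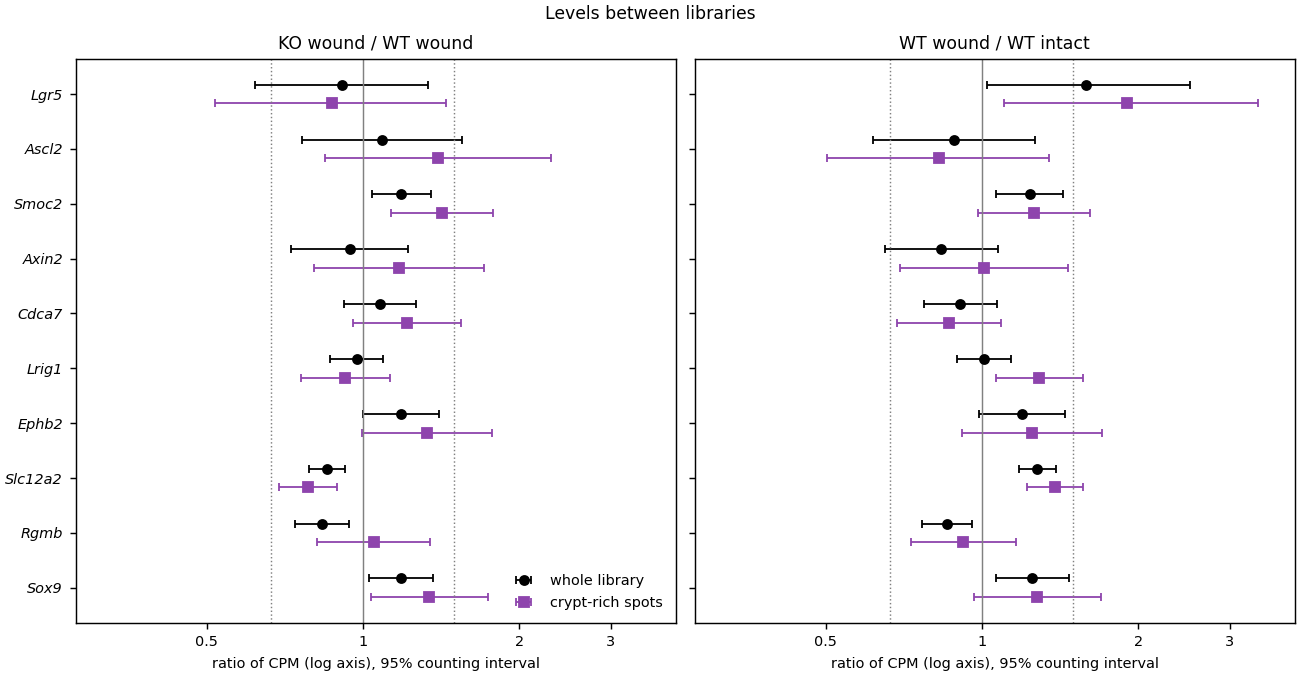
Ratios of level on a log axis, KO wound over WT wound on the left and WT wound over WT intact on the right, for whole libraries (black circles) and crypt-rich spots (purple squares), with 95% counting intervals. Dotted lines mark 1.5-fold. On the left no point lies past a dotted line, and on the right Lgr5 alone does.

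Distance from the wound was measured from a wound core, the 10% of spots in each library with the highest share of wound bed genes (58 spots in KO wound and 64 in WT wound). Epithelium-led spots were near at 1 to 3 array steps, mid at 4 to 6 and far beyond 6. Near, mid and far held 132, 122 and 124 spots in KO wound and 136, 116 and 118 in WT wound. Near spots were richer in crypts: 44.7% of near and 18.5% of far spots were crypt-rich in KO wound, and 44.1% and 22.9% in WT wound. Near over far values within crypt-rich spots are therefore given after those over all epithelium-led spots.

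In KO wound all 8 genes compared were higher near the core than far from it, where 30.3% of all genes were higher and 6.37% lower. In WT wound 5 of 8 were, where 18.6% of all genes were higher and 2.75% lower. The pieces lay wholly apart for 7 of 8 genes in KO wound, against 38.7% of all genes, and for 4 of 8 in WT wound, against 21.7%. At 2-fold 5 of 8 were called in KO wound and 1 of 8 in WT wound, where 11.4% and 5.13% of all genes were. Of the 7 genes that could be compared with a KO piece left out, 7 were called without piece 1, 5 without piece 2 and 6 without piece 3. In WT intact, where there is no wound and the same rule only marks the spots highest in these genes, near over mid was higher for 6 of 8 genes, where 20% of all genes were higher, with pieces apart for 5 of 8, against 21.9%. A gradient of the set was thus seen under this rule in unwounded tissue as well, with Smoc2 at 3.44. There 84 of 184 near spots (45.7%) and 5 of 41 mid spots were crypt-rich. What this contributed to the gradient in WT intact was not tested.

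Smoc2 had the steepest distance profile of the 8 genes compared in both wounds. In KO wound it had 67.9 CPM near, 36.5 mid and 10.9 far, with near pieces at 29.9, 73.3 and 86.2 CPM and far pieces at 13.0, 7.22 and 14.7. In WT wound it had 43.4 CPM near, 19.9 mid and 12.3 far, with near pieces at 48.5, 42.1 and 38.8 CPM and far pieces at 12.5, 13.3 and 11.0. The near over far ratio was 6.22 (4.11 to 9.72) in KO wound, or 9.55 without piece 1, and 3.54 (2.39 to 5.37) in WT wound. Between the 2 wounds Smoc2 was 1.56-fold higher in near spots of KO wound (1.21 to 2.02), the 1 gene called of 9 compared, where 5.11% of all genes were higher and 3.63% lower, and its pieces overlapped. The core was the top 10% of each library, so near spots need not be the same zone in the 2 wounds. With a common cut at the 99th percentile of WT intact, KO wound held 159 core spots and WT wound 58. By piece the 10% core held 6, 33 and 19 spots in KO wound and 34, 17 and 13 in WT wound. What this contributed to the Smoc2 ratio was not tested.

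The other 7 genes compared had shallower profiles. Ephb2 stood near over far at 2.79 in KO wound and 1.98 in WT wound, Axin2 at 2.75 and 1.93, Cdca7 at 2.68 and 1.64, and Lrig1 at 2.15 and 1.80. Without piece 1 of KO wound the KO values of Axin2, Cdca7, Lrig1 and Rgmb were 4.82, 5.74, 3.48 and 3.07. Sox9 stood at 1.78 and 1.42, Slc12a2 at 1.74 and 1.46, and Rgmb at 1.52 and 1.497, and the 3 WT wound values fell short of the threshold. Lgr5 had 21 UMIs near and 6 far in KO wound, and 31 and 6 in WT wound, too few for the rule, with ratios of 4.69 (1.83 to 14.2) and 4.91 (2.02 to 14.4). Ascl2, also too rare, stood at 4.40 (1.83 to 12.1) and 1.39 (0.650 to 3.06). Crypt cell cycle genes stood at 2.72 and 2.08 near over far in the same spots, smooth muscle genes at 2.82 and 1.91, and surface genes at 0.550 and 0.794.

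Within crypt-rich spots the profile was kept by fewer genes. In KO wound Smoc2 at 2.19 (1.31 to 3.87) and Sox9 at 1.72 (1.03 to 3.02) were called higher near the core, 2 of 7 compared where 15.1% of all genes were higher. In WT wound Smoc2 at 2.48 (1.49 to 4.36), Ephb2 at 2.14 (1.16 to 4.26) and Sox9 at 1.57 (0.954 to 2.69) were, 3 of 7 compared where 13.0% were, and of these 7 the pieces lay apart for Ephb2 alone, against 12.5% of all genes. In both wounds 4 genes compared were not called: Rgmb stood at 0.802 in KO wound and 1.33 in WT wound, Lrig1 at 0.942 and 1.29, Slc12a2 at 1.28 and 0.992, and Cdca7 at 1.202 and 1.21. Under 50 UMIs lay behind Axin2 at 1.44 and 1.56, Lgr5 at 1.196 and 2.32, and Ascl2 at 1.35 and 1.16.

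The crypt-rich values of Smoc2 by distance were 125 CPM near, 146 mid and 57.2 far in KO wound, and 98.7, 81.8 and 39.8 in WT wound. In KO wound the mid value was thus above the near value. The Smoc2 ratio in KO wound was 1.24 without piece 1, and the Sox9 ratio was 4.19 without piece 1 and 1.49 without piece 2, and far crypt-rich spots there numbered 23, none in piece 3. Ephb2 in crypt-rich spots of WT wound had 93.1, 41.4 and 46.9 CPM in near pieces and 27.1, 28.6 and 30.7 CPM in far pieces, with the ratio between 1.44 and 2.56 as each piece was left out. In KO wound Ephb2 had 68.3 CPM near and 60.3 far, a ratio of 1.13 (0.654 to 2.04). The difference between the wounds in this Ephb2 profile was not tested.

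Beside these, smooth muscle genes stood near over far at 1.67 in KO wound and 1.32 in WT wound within crypt-rich spots, cell cycle genes at 1.28 and 1.77, and the other crypt genes at 0.715 and 0.890. Lymphoid genes had 41.3 CPM near and 31.8 far in KO wound, and 318 and 13.3 in WT wound, where near pieces ran between 22.6 and 1099 CPM. Smoc2 was as high in muscle-led as in crypt-rich spots, and the part of smooth muscle RNA in its near values was not tested. Where only crypt-rich spots with smooth muscle UMIs under 10% of their epithelium UMIs were kept, an alternative chosen after seeing the data, 3 genes could be compared in KO wound and 4 in WT wound and 0 were called in either, where 12.5% and 9.30% of all genes were higher and 5.71% and 4.45% lower. Far spots of this kind numbered 13 in KO wound and 18 in WT wound. In this selection Smoc2 stood at 2.20 in KO wound and 1.66 in WT wound, Sox9 at 2.33 and 1.86, and Ephb2 at 1.001 and 2.18. All came from under 50 UMIs, so these 3 genes could not be called whatever their ratio.

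**Figure D5:**
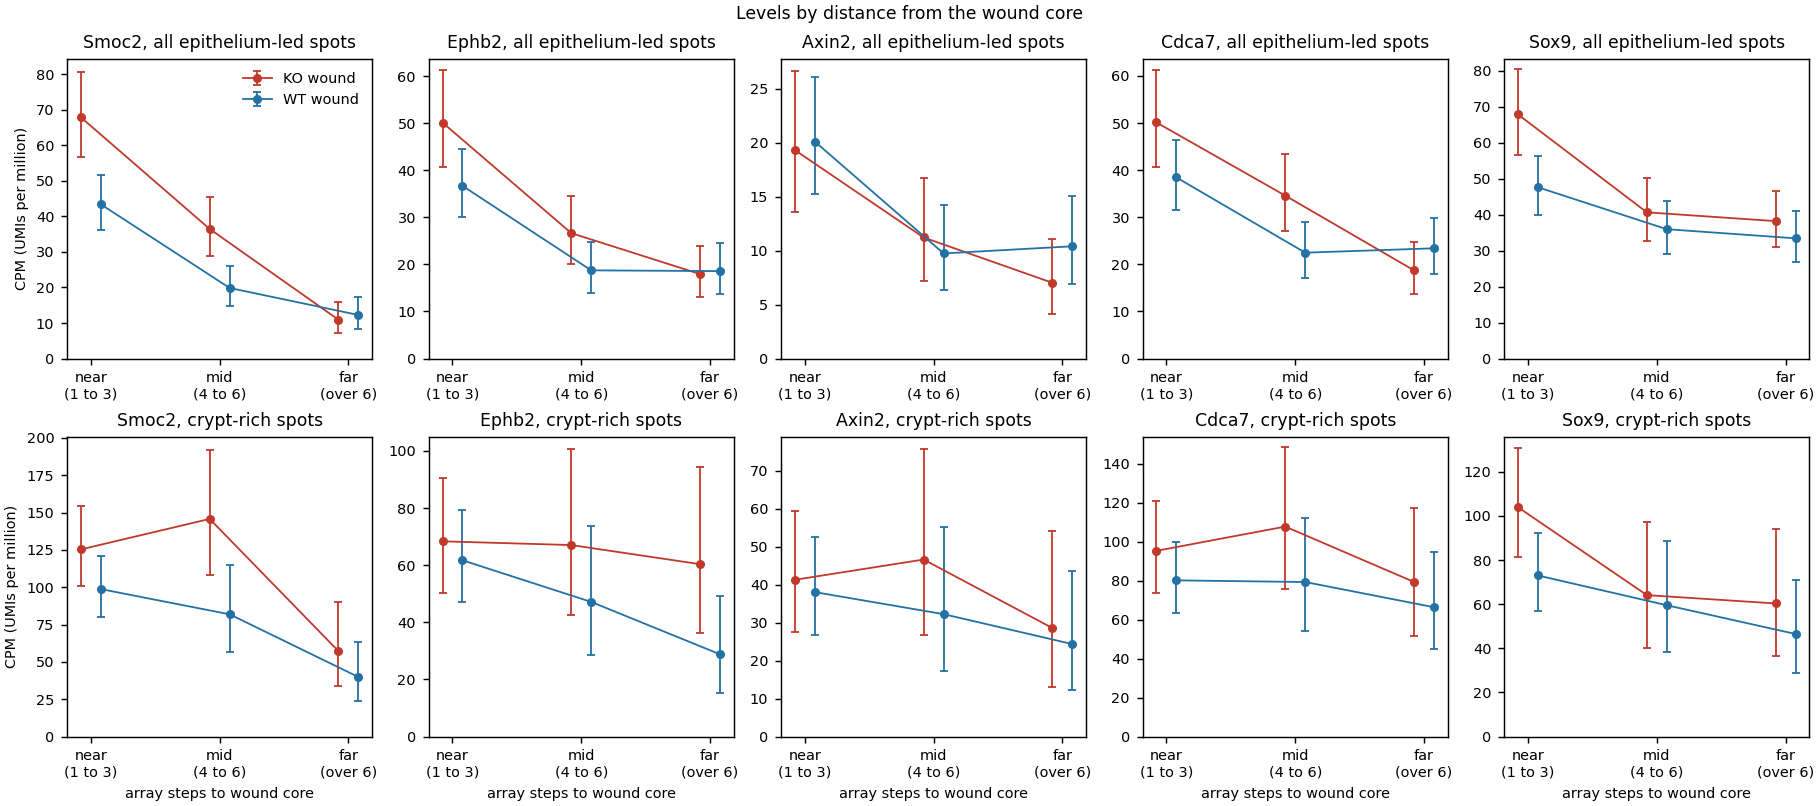
Level in CPM of Smoc2, Ephb2, Axin2, Cdca7 and Sox9 near (1 to 3 steps), mid (4 to 6) and far (over 6) from the wound core in KO wound (red) and WT wound (blue), with points for library values and bars for 95% Poisson intervals. The top row holds all epithelium-led spots, where every gene shown is lower far than near, and the bottom row crypt-rich spots, where the Axin2 and Cdca7 intervals overlap at all distances.

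The pathway around the set was followed in lists of Wnt agonists, receptors, inhibitors and nuclear factors or targets. Of agonists 3 of 8 could be compared between WT wound and WT intact over whole libraries, and 2 were higher in wounds: Wnt5a, a ligand of the non-canonical branch, at 1.70, and Rspo3, the R-spondin of stromal cells that binds Lgr5, at 1.65. Of receptors 1 of 6 was higher, the co-receptor Lrp5 at 1.86. Of inhibitors 2 of 8 were higher, the secreted Wnt antagonists Wif1 at 2.41 and Sfrp2 at 1.51, and of nuclear factors and targets 2 of 7, Cd44 at 1.81 and Ccnd1 at 1.55. None of the 24 genes compared in these lists was called lower. Each count is read against the 9.18% of all genes called higher. The ratios are of whole libraries, whose sections differed in make-up. Matrix-led spots numbered 47 in WT wound and 1 in WT intact, and muscle-led spots 211 and 264. What this contributed to the ratios of the pathway genes was not tested.

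Within crypt-rich spots Myc, a Wnt target whose product activates Cdca7, was at 0.50 (0.336 to 0.734) in WT wound over WT intact and at 2.04 (1.36 to 3.07) in KO wound over WT wound. Of all genes 6.37% were lower in the first of these comparisons and 4.65% higher in the second. Cdca7 itself stood at 0.863 and 1.21, with counting intervals, given above, that include equal levels. The cell cycle genes used to choose these spots were likewise lower and then higher. Any part of Myc in the Cdca7 values was not tested. These 2 comparisons share the WT wound library. Cd44 was 2.06-fold higher in KO wound in crypt-rich spots, but it is one of the genes used to find those spots. Over whole libraries 3 of the 24 pathway genes compared were called higher in KO wound than in WT wound and 0 lower, where 3.34% and 2.73% of all genes were. These were Wnt4 at 1.55, Apcdd1, a membrane inhibitor of Wnt, at 1.63 and Cd44 at 1.53.

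Other genes of the pathway lay in both directions along the crypt axis, and those named are a selection of the ones past 1.5-fold. Of all genes compared, 44.2%, 48.1% and 41.4% were higher in crypt-rich than in surface-rich spots of KO wound, WT wound and WT intact. In the same order, 14.2%, 12.3% and 16.0% were lower. Lgr4, another R-spondin receptor, was lower in crypt-rich than in surface-rich spots, at 0.583 in KO wound, 0.635 in WT wound and 0.492 in WT intact, opposite to Lgr5. The Wnt receptor Fzd5 at 0.382, 0.419 and 0.444 and the nuclear factor Tcf7l2 at 0.454, 0.426 and 0.316 were also lower in crypt-rich spots. Rnf43, the ligase that removes Wnt receptors and is itself a Wnt target, was higher there at 2.65, 2.13 and 1.96. Myc at 7.64, 3.21 and 9.24 and Ccnd1 at 4.65, 4.22 and 4.39 were higher as well.

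Genes used as markers of regenerating epithelium were set beside the stem cell genes. Of 7 regenerative genes compared, 2 were called higher and 1 lower in WT wound over WT intact: Clu, which marks revival stem cells in the intestine, stood at 6.81 (6.06 to 7.68), the ErbB ligand Areg at 1.66 and Msln at 0.344. Of all genes 9.18% were higher and 7.03% lower in this comparison. In KO wound over WT wound 1 of 7 was higher, Areg at 1.58, and 1 lower, Clu at 0.638, where 3.34% and 2.73% of all genes were. Of the reserve stem cell list 3 of 6 could be compared and 1, Prom1, was higher in WT wound, at 1.55, while 0 of 3 were called in KO wound over WT wound, against the same shares of all genes. Over whole libraries the 10 crypt stem cell genes lay between 0.835 and 1.59 times intact in WT wound, against 6.81 for Clu. Clu was the furthest from intact of the regenerative genes called. The layers that held its UMIs are not given here, so its value is not one of epithelium alone.

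The genes most like the set were found over 42 units of piece by layer, by Pearson correlation with the mean log2(CPM + 1) of the 10 genes. Among them were Rpl35a at 0.887, Sypl at 0.871, Rpl38 at 0.870 and Rcc2 at 0.867. The units share libraries and differ in depth and layer, so the correlations are descriptions. Among the set, Ascl2 followed the mean of the other 9 most closely at 0.909, then Axin2 at 0.819 and Lgr5 at 0.815. Sox9 followed it least, at 0.464, and Smoc2 stood at 0.699 and Rgmb at 0.713.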

How the data were processed

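Sections of mouse distal colon gave 3 Visium libraries, for which the authors deposited raw UMI counts per gene and spot, made with Space Ranger 1.2.1 per the file headers and on the mm10 build per the submitters' processing notes. Other read processing is not given in the sources used here. Sections were 10 µm thick, per the labels' protocols. Libraries had 279, 245 and 149 array barcodes in common pairwise, which are shared array positions and not shared cells.

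Counts were summed per library, tissue piece, layer or distance class and scaled to CPM (Python 3.11.15, pandas 2.3.3, scipy 1.17.1). Ratios have exact conditional binomial and levels exact Poisson 95% intervals; for shares of spots the intervals are Clopper-Pearson. Counts were not modelled, since 1 library per group allows no test and no p-value. The calculation of ratios and intervals was checked on simulated Poisson counts, which hold no spread between animals, pieces or capture areas. That check covers the arithmetic and not how well the intervals suit these data. The named genes are all 10 of the set, up to 3 per pathway list and direction with the most UMIs among those past 1.5-fold, of which a selection is given, and the 5 genes with at least 200 UMIs most correlated with the set, of which 1 is not reported here. The genes of the set, the marker lists and the layers were chosen with earlier results of these data known. Alternatives were other scalings (edgeR 4.0.16 for TMM factors), weights, minimum counts, core and layer rules and each piece left out, and crypt-rich spots by non-cycle genes, crypt-rich spots of little smooth muscle and crypt-rich spots with a piece left out were added after seeing the data.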

Additional observations from a re-analysis of the deposited data

How the results depend on the processing

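Over the ratios of the 10 genes and of their sum, 847 values stayed within the interval of the main value and 183 lay outside it. The 847 include settings that changed only the minimum count or the fold of a call. Those settings leave a ratio as it was, so their values could not have moved. A further 12 values, all from ratios called higher at 1.5-fold, turned below 1. Ratios not called are left out of these 12, though some also crossed 1. Slc12a2 near over far in WT wound went from 1.46 to 0.866 within crypt-rich spots without piece 3. In WT wound over WT intact the count called higher was 1, and 0 with median-ratio size factors, within epithelium-led spots or at 2-fold, 2 with equal weight per spot, and 0 to 1 with a piece left out. In KO wound over WT wound it was 0, and 2 in crypt-rich spots chosen without cycle genes, and the count lower was 0 to 1 with a piece left out. All 8 genes stayed higher in crypt-rich spots in the other settings tried, with 7 to 8 (KO wound and WT wound) and 6 to 8 (WT intact) called with a piece left out, where fewer genes could be compared. The near over far count in KO wound was 8, and 5 with the core past the 99th percentile of intact tissue or at 2-fold, 2 within crypt-rich spots by either choice of crypt genes, 0 in those of little smooth muscle, 5 to 7 with a piece left out and 1 to 2 so within crypt-rich spots. In WT wound it was 5, and 8 per UMI of the epithelium list, 3 within crypt-rich spots by either choice, 1 at 2-fold, 0 in those of little smooth muscle, 5 to 6 with a piece left out and 2 to 4 so within crypt-rich spots. The near over far ratio in KO wound turned below 1 within crypt-rich spots for Rgmb at 0.802 (0.872 without cycle genes, 0.461 with little smooth muscle, 0.676 to 0.831 with a piece left out) and Lrig1 at 0.942 (0.751 without piece 3 and 0.795 without piece 1), and for Axin2 at 0.968 without piece 1 and Ephb2 at 0.874 without piece 2. Over all spots and crypt-rich spots with a piece left out, this ratio ran between 0.676 and 3.07 for Rgmb, 0.751 and 3.48 for Lrig1, 0.968 and 4.82 for Axin2, and 0.874 and 4.05 for Ephb2. The count lower in muscle-led spots was 1 in KO wound, 2 in spots with at least 3 times more smooth muscle UMIs and 0 to 2 with a piece left out. It was 0 in WT wound, 5 in such spots and 0 to 3 with a piece left out, and 2 in WT intact, with 1 to 3. Ascl2 in KO wound turned to 0.834 in such spots. The causes were not tested, except that fewer UMIs leave fewer genes to compare. A core by neutrophil genes left under 20 far spots in WT wound and gave no value there. No paired analysis was possible because the labels give 1 library per group. With 31 to 68 Lgr5 UMIs per library, depth limits Lgr5 most.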
